A study of Spodoptera frugiperda with 3 samples.

Results

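Insects darken and harden a new cuticle by tanning, a pathway that starts from tyrosine. Tyrosine 3-monooxygenase (tyrosine hydroxylase) turns tyrosine into DOPA, which is decarboxylated to dopamine, and the catechols derived from these are oxidised to quinones that crosslink cuticular proteins or polymerise to melanin. Phenoloxidases oxidise such substrates in hemolymph, at wounds and around pathogens. They are made as inactive precursors, in Lepidoptera mainly by a class of hemocytes, and are cut into the active form by a cascade of serine proteases that serpins hold in check. Proteins of the yellow family act in melanin formation, and some members in flies convert dopachrome. Verson's glands are paired dermal glands that empty their product around each molt, and they degenerate after pupation. The study that reported these data proposes release both to the outside and into the hemolymph.

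The results below describe 4 genes of this pathway in Verson's glands, found by their identifiers among the 20644 genes listed. They are phenoloxidase subunit 1-like (LOC118274789), phenoloxidase subunit 2-like (LOC118274553), a protein yellow-like gene (LOC118264592) and tyrosine 3-monooxygenase-like (LOC118263443). All 4 were detected in all 3 libraries, and none was lost to a filter on low values. The glands came from L6 (last instar) larvae, prepupae and pupae of FAW-SID1, a fall armyworm (Spodoptera frugiperda) strain that carries GFP and the Caenorhabditis elegans gene SID1 under the hr5-IE1 and IE1 promoters at all 3 stages. There was no dsRNA treatment or wild-type strain among these samples. Each stage has 1 library of total RNA. Neither the number of insects behind it nor the day within the stage is given in the sources used here. With 1 library a stage, no difference between stages was checked against replicates, and none carries a p-value.

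The libraries held 15208331 to 21366500 exon reads, of which 0.307% to 87.8% lay on rRNA genes, with the highest share in L6. After leaving out 138 rRNA and mitochondrial genes, the L6 library retained 2610753 exon reads, the prepupal library 15161624 and the pupal library 11716156. Levels are therefore given as TPM (reads per exon length, scaled to the same fixed sum in every library) rescaled without these genes, called rescaled TPM, next to TPM as deposited. The rescaling multiplied L6 values by 3.64, prepupal values by 1.003 and pupal values by 1.22. Intervals are exact 95% intervals that cover counting error only.

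The 2 phenoloxidase genes lie on the same sequence of the files, NC_049729.1, both on the minus strand and 10150621 bases apart, while the other genes lie on separate sequences. Phenoloxidase subunit 1-like spans 10556404 to 10566625 with 17 exons and 2 annotated transcripts, and subunit 2-like spans 399182 to 405782 with 12 exons and 1 transcript. The yellow-like gene lies at 8301447 to 8307921 of NC_049715.1, minus strand, with 4 exons. Tyrosine 3-monooxygenase-like lies at 14322906 to 14330226 of NC_049710.1, plus strand, with 8 exons. The name of the genome build is not given in the sources used here.

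Both phenoloxidase genes were abundant in L6 glands and close to 1 to 2 rescaled TPM afterwards. Phenoloxidase subunit 1-like had 81.4 rescaled TPM in L6 (611 exon reads), while prepupal glands had 1.82 (57 reads) and pupal glands 1.11 (42 reads). As deposited, its TPM was 22.4, 1.81 and 0.906 in the same order. Its level in the prepupa was 44.8-fold lower than in L6 (interval 34.1 to 59.9), and in the pupa 73.3-fold lower than in L6 (53.6 to 102.8). With TPM as deposited these were 12.4-fold and 24.7-fold. The L6 library thus stood far above both later libraries on either scale. In bulk samples such as these, fewer cells of a type and less RNA per cell cannot be told apart. Among the 20506 genes kept, subunit 1-like was placed 999th from the top in L6, 9338th in the prepupa and 8909th in the pupa.

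Phenoloxidase subunit 2-like had the highest level of the 4 genes in any library, 219 rescaled TPM in L6 from 1320 reads. Prepupal glands had 1.55 (39 reads) and pupal glands 1.68 (51 reads). As deposited its TPM was 60.3 in L6, 1.54 in prepupal and 1.37 in pupal glands. The prepupa was 141-fold lower than L6 (interval 103 to 200) and the pupa 130-fold lower than L6 (98.6 to 176), or 39.0-fold and 43.9-fold with TPM as deposited. It was placed 460th of the genes kept in L6 and 9700th in the prepupa.

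Neither phenoloxidase kept one order between the pupa and the prepupa under every scaling. For subunit 2-like the ratio of pupa over prepupa was 1.08 with an interval of 0.701 to 1.69, so that a difference was not detectable at this depth. For subunit 1-like it was 0.611 (0.400 to 0.926). Both values depend on the scaling. TMM factors turned the log2 ratio of subunit 1-like to 0.24, with the pupa the higher, and put that of subunit 2-like at 1.06, above its counting interval. With TPM as deposited the log2 ratio of subunit 2-like was -0.17, with the pupa the lower.

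The balance of the 2 subunits can be compared within a library, where the scaling cancels. In L6 the level of subunit 2-like was 2.69 times that of subunit 1-like (interval 2.45 to 2.97). The ratio was 0.853 in the prepupa (0.553 to 1.30) and 1.51 in the pupa (0.987 to 2.33), both with intervals that include an equal level. The intervals of the prepupa and the pupa overlap each other but not that of L6.

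**Figure D1:**
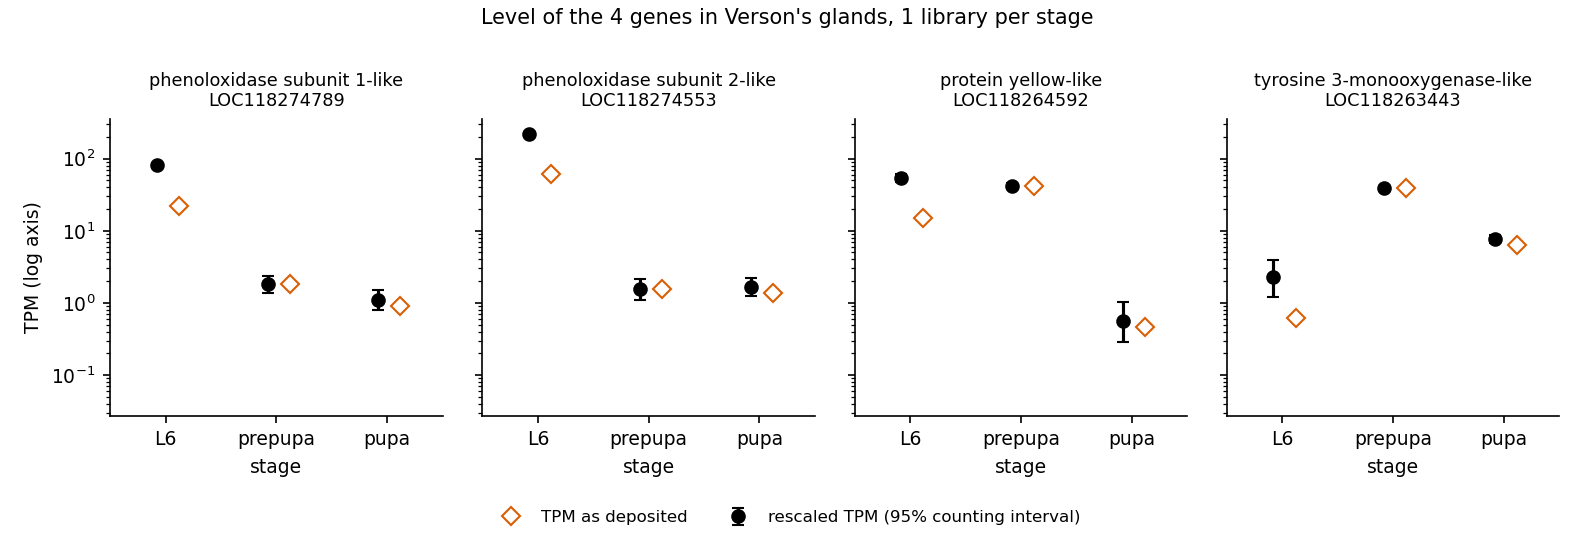
Level of the 4 genes (panels) in the L6, prepupa and pupa gland libraries, in TPM on a log axis. Filled circles are rescaled TPM with exact 95% counting intervals, some of which are smaller than the symbol, and open diamonds are TPM as deposited. Both phenoloxidases are lower after L6, where subunit 2-like reaches 219 rescaled TPM, while tyrosine 3-monooxygenase-like is highest in the prepupa, at 39.6.

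The yellow-like gene LOC118264592 was present in L6 and prepupal glands and nearly gone from the pupal library. It had 53.8 rescaled TPM in L6 (206 reads), whereas prepupal glands had 42.1 (674 reads) and pupal glands 0.570 (11 reads). Its level in the pupa was 73.9-fold lower than in the prepupa (interval 41.04 to 149) and 94.4-fold lower than in L6 (51.7 to 192). With TPM as deposited these were 90.2-fold and 31.8-fold. Which of the earlier libraries was higher depends on the treatment of rRNA. The ratio of prepupa over L6 was 0.783 rescaled (0.669 to 0.919), but 2.84 with TPM as deposited, where the prepupa had 42.0 and L6 14.8. The pupa was the lowest of the libraries on both scales.

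Tyrosine 3-monooxygenase-like, the first enzyme of the pathway, was the only one of the 4 with its highest level in the prepupa on both scales. It had 2.28 rescaled TPM in L6 (13 reads), while prepupal glands had 39.6 (942 reads) and pupal glands 7.73 (222 reads). As deposited its TPM was 0.628, 39.5 and 6.32. The prepupa was 17.3-fold higher than L6 (interval 10.1 to 32.7), or 62.9-fold with TPM as deposited. The pupa was 3.39-fold higher than L6 (1.94 to 6.46), or 10.1-fold with TPM as deposited, and 5.12-fold lower than the prepupa (4.42 to 5.95). The L6 value rests on 13 reads, the fewest of any member outside the pupal yellow-like value, and its interval of 1.22 to 3.90 rescaled TPM does not reach the pupal one of 6.75 to 8.82.

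Set against each other within a library, tyrosine 3-monooxygenase-like and the phenoloxidases changed places. In L6, the level of tyrosine 3-monooxygenase-like was 0.0104 times that of phenoloxidase subunit 2-like (interval 0.00553 to 0.0179) and 0.0281 times that of subunit 1-like (0.0149 to 0.0484). In the prepupa it was 25.6 times subunit 2-like (18.6 to 36.2) and 21.8 times subunit 1-like (16.7 to 29.0). In the pupa it was 4.61 times and 6.97 times (3.38 to 6.37 and 4.995 to 9.94). The latter ratio rests on 42 pupal exon reads of subunit 1-like, none of which spanned an exon-exon junction. The order of the 4 levels was subunit 2-like, subunit 1-like, yellow-like and tyrosine 3-monooxygenase-like in L6, each apart from the next beyond its counting interval. In the prepupa the yellow-like gene and tyrosine 3-monooxygenase-like stood together at the top, at 42.1 and 39.6 with overlapping intervals, and the phenoloxidases together below, at 1.82 and 1.55.

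The files also count reads that span an exon-exon junction, which come from spliced RNA, and reads in introns. Of the exon reads of phenoloxidase subunit 1-like, 45.7% spanned a junction in L6 (279 of 611, interval 41.7 to 49.7%) and 50.9% in the prepupa (29 of 57, 37.3 to 64.4%). In the pupa it was 0 of 42, which allows a share of up to 7.14% by the limit of 3 counts and 8.41% by the exact interval, and 1 of its 2 annotated transcripts was listed as detected there, against both in the other libraries. Subunit 2-like kept a high share throughout, with 75.1% in L6 (991 of 1320), 69.2% in the prepupa (27 of 39) and 64.7% in the pupa (33 of 51, interval 50.1 to 77.6%). In the pupa the intervals of the 2 genes do not overlap, at a like number of reads. Over all protein-coding genes with at least 2 exons, the L6 library had a share of 51.4%, the prepupal library 45.7% and the pupal library 48.1%. Genes of at least 10 exons with 20 to 80 exon reads, a class defined after the values were seen, had no junction read in 1.72% of cases in L6, 0.826% in prepupal and 6.64% in pupal glands (76 of 1145), so subunit 1-like is not alone in this.

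Intron reads set the 2 phenoloxidases apart in L6. For subunit 1-like they were 20.6% of the gene's reads in L6 (159 of 770, interval 17.8 to 23.7%), against 1.57% for subunit 2-like (21 of 1341, 0.972 to 2.38%) and 7.56% over all protein-coding genes of that library. In the prepupa the shares were 30.5% for subunit 1-like (25 of 82, 20.8 to 41.6%) and 25.0% for subunit 2-like (13 of 52, 14.0 to 38.9%). In the pupa they were 10.6% for subunit 1-like (5 of 47, 3.55 to 23.1%) and 5.56% for subunit 2-like (3 of 54, 1.16 to 15.4%). In both later libraries the intervals of the 2 genes overlap. A gene on the opposite strand, LOC118274554, lies wholly inside subunit 2-like, and the strand setting of the libraries is not given in the sources used here. Its level was 11.5 rescaled TPM at L6, 35.6 at the prepupa and 3.72 at the pupa stage, and its part in the reads of subunit 2-like was not tested. The yellow-like gene and tyrosine 3-monooxygenase-like had at most 5.13% intron reads in every library.

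Uniquely mapped reads made up all exon reads of 3 of the genes in each library. For phenoloxidase subunit 2-like they were 88.8% in L6, 92.3% in prepupal and 94.1% in pupal glands. Counting uniquely mapped reads alone kept the stage order of all 4 genes.

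**Figure D2:**
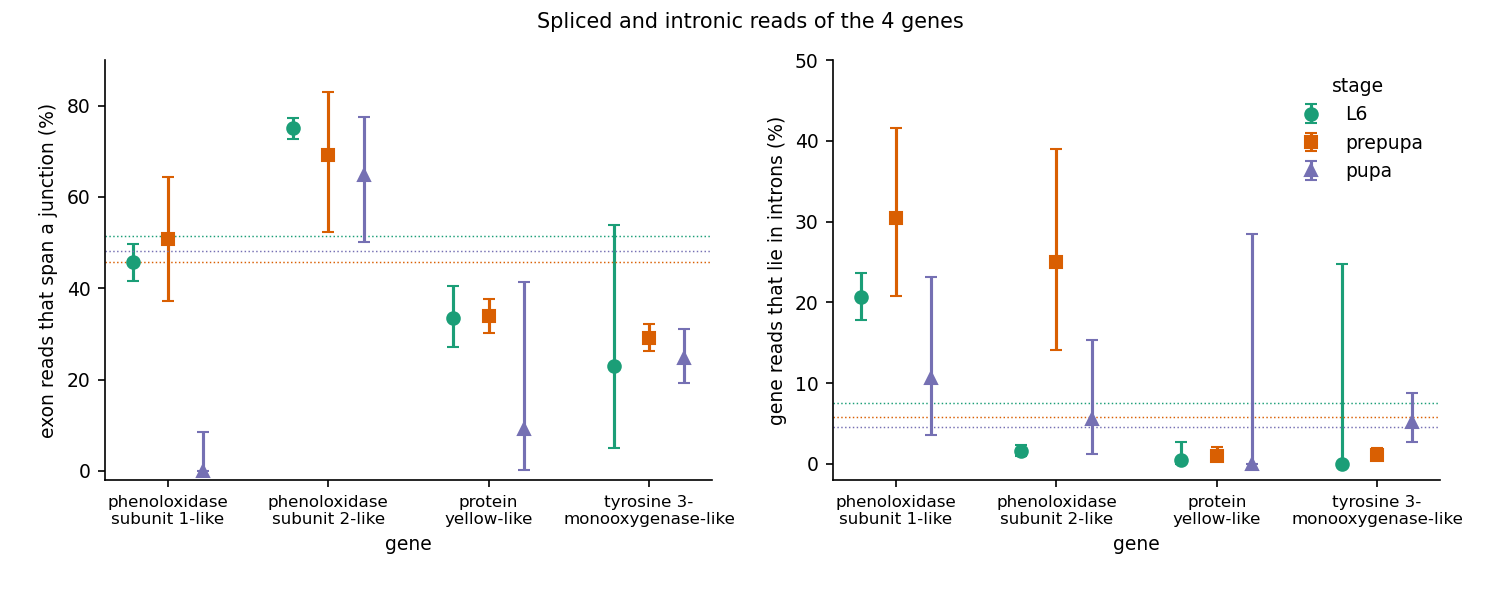
Share of exon reads that span a junction (left, percent) and share of gene reads in introns (right, percent) for the 4 genes in the L6, prepupa and pupa libraries, with exact 95% intervals. Dotted lines are the library's share over protein-coding genes, with at least 2 exons on the left. Phenoloxidase subunit 1-like in the pupa stands at 0 of 42 junction reads, while subunit 2-like in the pupa has 33 of 51.

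The ratios between stages were read against those of all genes. A gene was counted as past the fold where rescaled TPM + 1 differed at least 10-fold, among genes with at least 1 rescaled TPM in either library. Between the prepupa and L6, 2 of the 4 members, the phenoloxidases, were past the fold on the lower side, where 5.14% of 12354 genes were, and tyrosine 3-monooxygenase-like was past it on the higher side, where 5.35% were. Between the pupa and L6, 3 members were past the fold on the lower side, the phenoloxidases and the yellow-like gene, against 3.63% of 11636 genes, and none on the higher side, against 4.55%. For the pupa over the prepupa, 1 member, the yellow-like gene, was past the fold on the lower side, against 8.92% of 11833 genes, and none on the higher side, against 4.77%. Phenoloxidase subunit 2-like was among the lowest ratios of pupa over L6, with 0.473% of genes lower still. With TPM as deposited, phenoloxidase subunit 1-like was 8.32-fold lower in the prepupa than in L6 on TPM + 1 and no longer past the fold, and all other calls of the 4 genes stood. With RPKM as deposited, subunit 1-like was past the fold in no comparison (prepupa 5.05-fold and pupa 6.19-fold lower than L6), nor was the yellow-like gene in pupa over L6 (5.33-fold lower).

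The scaling moved the balance over all genes. Between the prepupa and L6, 661 genes were past the fold on the higher side and 635 on the lower side rescaled, but 1536 and 260 as deposited. For the pupa over L6 there were 529 and 422 rescaled, 867 and 136 as deposited, and 887 and 376 with TMM factors. For the pupa over the prepupa there were 564 and 1056 rescaled, and 1070 and 723 with TMM factors. The calls of the 4 genes on rescaled TPM were also made with TMM factors.

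**Figure D3:**
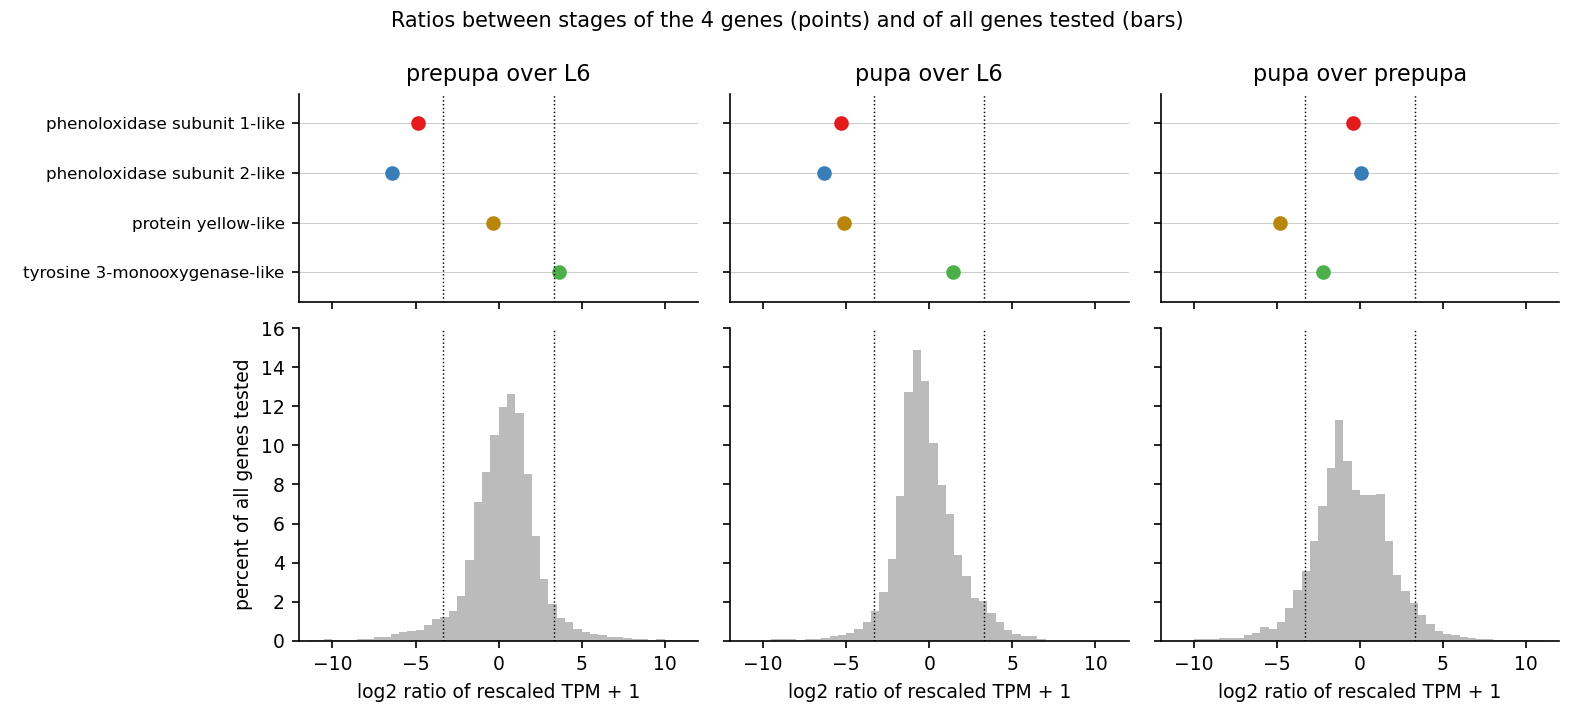
Log2 ratio of rescaled TPM + 1 between stages for the 4 genes (points, upper panels) and the distribution over all genes tested (bars, percent of genes, lower panels), with dotted lines at 10-fold. The phenoloxidases lie far to the left in both ratios over L6, tyrosine 3-monooxygenase-like lies just past 10-fold in prepupa over L6, and the yellow-like gene passes 10-fold only in the ratios of the pupa.

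Of the other tanning genes, 9 could be found by protein name among the 2296 genes with a name in the sources used here. Names were held only for genes the study listed as higher or lower in the glands than in other tissues, or as hemolymph protein homologs. The gland lists were called with these same libraries, so the named genes were partly selected on their levels here. The shares over all genes given below were not recomputed among named genes. No gene named as a dopa decarboxylase, as GTP cyclohydrolase or as an enzyme of N-acetyldopamine or N-beta-alanyldopamine synthesis was among these names, so that part of the pathway was not analysed here. On rescaled TPM the prepupa was the highest library for 7 of the 9, L6 for 1 and the pupa for 1. Over the 12971 genes with at least 1 rescaled TPM in any library, the prepupa was the highest for 46.4%, L6 for 27.1% and the pupa for 26.5%. As deposited the numbers were 8, 0 and 1. On that scale 58.4% of all these genes were highest in the prepupa, 11.0% in L6 and 30.6% in the pupa. With TMM factors the pupa passed the prepupa for LOC118266284 and LOC118282274. Between the prepupa and L6, 4 of the 9 were past 10-fold on the higher side, against 5.35% of all genes tested, and 0 on the lower, against 5.14%. Their median log2 ratio was 1.87, against 0.42 over all genes tested. Of pupa over prepupa, 4 were past it on the lower side, against 8.92% of all genes, and 0 on the higher, against 4.77%, with a median of -1.66 against -0.67. Of pupa over L6, 1 was past it on the higher side, against 4.55%, and 1 on the lower, against 3.63%, among the 8 above the minimum level, with a median of 0.51 against -0.38. Both sets of 4 past 10-fold include the yellow-like genes LOC118264306 and LOC118264620. Only 59.9% and 55.8% of their reads were uniquely mapped, so they may not be separate counts.

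The yellow family held most of the tanning genes found outside the members. LOC118264028 lies 32790 bases from the member LOC118264592 on the same strand. Both had like levels in L6, at 51.4 rescaled TPM in LOC118264028 and 53.8 in LOC118264592, a ratio of 0.956 (interval 0.802 to 1.14). In prepupal glands LOC118264028 had 2002 rescaled TPM (55457 reads), 47.5 times LOC118264592 (44.1 to 51.4). In pupal glands it had 1.23 (41 reads). The neighbouring yellow-like genes thus matched in L6 and separated in the prepupa, where LOC118264028 was 38.9-fold higher than in L6 (35.0 to 43.4) and LOC118264592 was not.

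Another pair of yellow-like genes, LOC118264306 and LOC118264620, lies 542179 bases apart on the same sequence, and each has 1 exon. LOC118264306 had 6.51 rescaled TPM in L6, 494 in prepupal and 30.4 in pupal glands. LOC118264620 had 3.73, 295 and 17.2. Their ratio stayed between 1.68 and 1.77 in the 3 libraries. Only 59.9% and 55.8% of their reads were uniquely mapped, so their separate levels depend on how shared reads were assigned. A yellow-like gene on another sequence, LOC118269081, stayed at or under 6.04 rescaled TPM, and L-dopachrome tautomerase yellow-f2-like (LOC118282274) had 4.67, 9.97 and 7.38. In flies yellow-f2 has dopachrome conversion activity.

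Laccase-1-like (LOC118266894) codes for a multicopper oxidase. The laccase that tans cuticle in beetles is a different family member, laccase 2, which was not among the names used here. Laccase-1-like had 0.916 rescaled TPM in L6 (12 reads), 60.1 in prepupal (3293 reads) and 0.560 in pupal glands (37 reads). Its prepupal level was 65.7-fold above L6 (interval 37.5 to 127) and its pupal level 107-fold below the prepupa.

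Tyrosine hydroxylase needs tetrahydrobiopterin as a cofactor, which dihydropteridine reductase regenerates. The files list a pair of dihydropteridine reductase-like genes, 168 bases apart and with 1 exon each, whose reads were all uniquely mapped. LOC118266284 had 106 rescaled TPM in L6, 263 in prepupal and 145 in pupal glands, and LOC118266070 had 2.74, 12.7 and 48.5. LOC118266284 was 38.6 times LOC118266070 in L6 (interval 19.4 to 90.1), 20.7 times in the prepupa (17.7 to 24.5) and 2.98 times in the pupa (2.74 to 3.24). These ratios within a library do not depend on its scaling, and the pupal one lies below both others. Protein henna-like (LOC118268821), in flies the phenylalanine hydroxylase that makes tyrosine, had 29.4, 12.02 and 13.7 rescaled TPM, with L6 the highest. As deposited it had 8.08, 11.98 and 11.2 TPM, with the prepupa the highest, and by RPKM the pupa was highest.

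**Figure D4:**
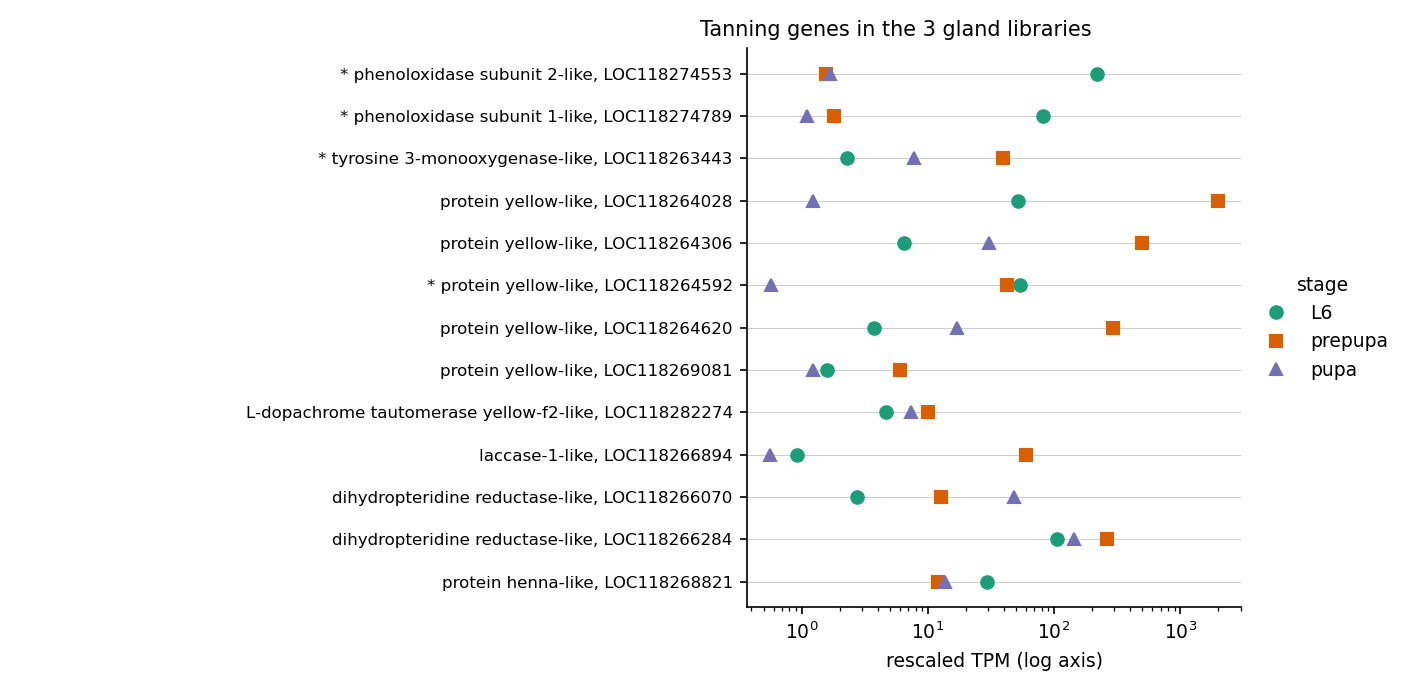
Rescaled TPM (log axis) of the 13 tanning genes found by name, in the L6 (circles), prepupa (squares) and pupa (triangles) libraries, with the 4 members marked by an asterisk. Most genes outside the phenoloxidases are highest in the prepupa, up to 2002 for LOC118264028, whereas both phenoloxidases are highest in L6.

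Genes of the cascade that controls phenoloxidase were also looked up by name, and 7 were found, none of them a gene named as a phenoloxidase-activating protease. The search did not take in serpins named as serine protease inhibitors, which are given below and would change the counts that follow. The limit on names given for the tanning genes holds here too. Between the prepupa and L6, 3 of the 7 were past 10-fold on the lower side, against 5.14% of all genes, and 0 on the higher, against 5.35%, with a median log2 ratio of -2.28 against 0.42. For pupa over L6, 2 were past it on the lower side, against 3.63%, and 1 on the higher, against 4.55%, with a median of -0.45 against -0.38. For pupa over prepupa, 0 of 6 were on the lower side, against 8.92%, and 2 on the higher, against 4.77%, with a median of 1.38 against -0.67. Antichymotrypsin-1-like (LOC118265780), a serpin, had 515 rescaled TPM in L6 (3608 reads), 0.307 in prepupal (9 reads) and 11.6 in pupal glands. It was highest in L6 like the phenoloxidases, though 76.8% of its reads were uniquely mapped. Alaserpin-like (LOC118282272), another serpin, had 189, 10.7 and 119 rescaled TPM, with L6 the highest, but as deposited the pupa was, at 96.9 against 52.1 in L6.

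Peptidoglycan recognition proteins bind bacterial walls and can start the cascade. The peptidoglycan recognition protein-like gene LOC118268611 was highest in the pupa, at 1933 rescaled TPM, with 154 in L6 and 30.8 in the prepupa. Peptidoglycan-recognition protein LB-like (LOC118274475) had 19.8 in L6 (58 reads), no read in prepupal and 4 reads in pupal glands. In flies LB is an amidase that degrades peptidoglycan. The other recognition genes, of the LE-like, 2-like and beta-1,3-glucan-binding kinds, stayed at or under 15.9 in all 3 libraries.

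Serpins named after fly genes were outside the list and were chosen after their values were seen. Serpin 77Ba in flies limits melanization in the tracheae. Serine protease inhibitor 77Ba-like LOC118279277 had 43.9 rescaled TPM in L6, 1612 in prepupal and 166 in pupal glands, and LOC118279162 had 182, 186 and 62.6. Serine protease inhibitor 88Ea-like (LOC118262736) had 11.6, 252 and 14.1. With TMM factors L6 passed the prepupa for LOC118279162. On rescaled TPM + 1, the log2 ratio of prepupa over L6 was 5.17 for LOC118279277, 4.32 for LOC118262736 and 0.03 for LOC118279162. LOC118279277 and LOC118262736 were thus past 10-fold on the higher side, where the cascade list had 0. For pupa over prepupa LOC118262736 was past it on the lower side, at -4.06, where that list also had 0.

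Markers of other cell types differed between the libraries in which the phenoloxidases differed. Of a hemocyte list, 4 genes were found by name, all of them integrins, which other cells also make, while hemocytin, hemolectin, lozenge and the other hemocyte genes of the list were not among the names used here. Their summed level was 212 rescaled TPM in L6, 101 in prepupal and 57.1 in pupal glands, and none was at 0 in any library. The integrins split. Integrin beta-PS-like LOC118273708 had 148, 2.94 and 14.9 rescaled TPM and its neighbour LOC118273707 had 29.8, 0.362 and 1.20, both highest in L6 like the phenoloxidases. Only 74.6% and 69.2% of their reads were uniquely mapped, so their separate levels depend on how shared reads were assigned. Integrin beta-PS-like LOC118266679 had 28.7, 80.2 and 37.9 and integrin alpha-PS2-like (LOC118266613) had 5.28, 17.3 and 3.11, highest in the prepupa. Uniquely mapped reads were 100% in LOC118266679 and 99.5% in LOC118266613.

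Muscle genes stood out more strongly. The 6 muscle genes found, troponins and a muscle actin, were all highest in L6, with a summed level of 6397 rescaled TPM in L6, 42.6 in prepupal and 191 in pupal glands. Over the 12971 genes with at least 1 rescaled TPM in any library, 27.1% were highest in L6. Single muscle genes ranged from 192 to 2535 in L6. Uniquely mapped reads were 34.0% to 73.2% in the troponin C-like genes, whose separate levels thus depend on how shared reads were assigned. They were 100% in troponin I and the muscle actin. Tropomyosin and muscle myosin heavy chain, also on the list, were not found by name. The 5 fat body genes summed to 3272, 325 and 12192, with vitellogenin-like at most 0.359. Apolipophorin-3 made up most of the L6 and pupal sums, at 3028 in L6 and 10387 in the pupa. From L6 to the prepupa it fell to 83.5, and apolipophorins-like fell from 143 to 30.2. Basic juvenile hormone-suppressible protein 2 rose from 67.4 to 158 and protein 1-like from 33.0 to 53.9. Only 3.87% of the reads of protein 1-like were uniquely mapped. The part of hemocytes, muscle or fat body in the levels of the 4 genes was not tested. No gene is known here that defines Verson's glands, so that the label of the tissue could not be checked against a marker.

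**Figure D5:**
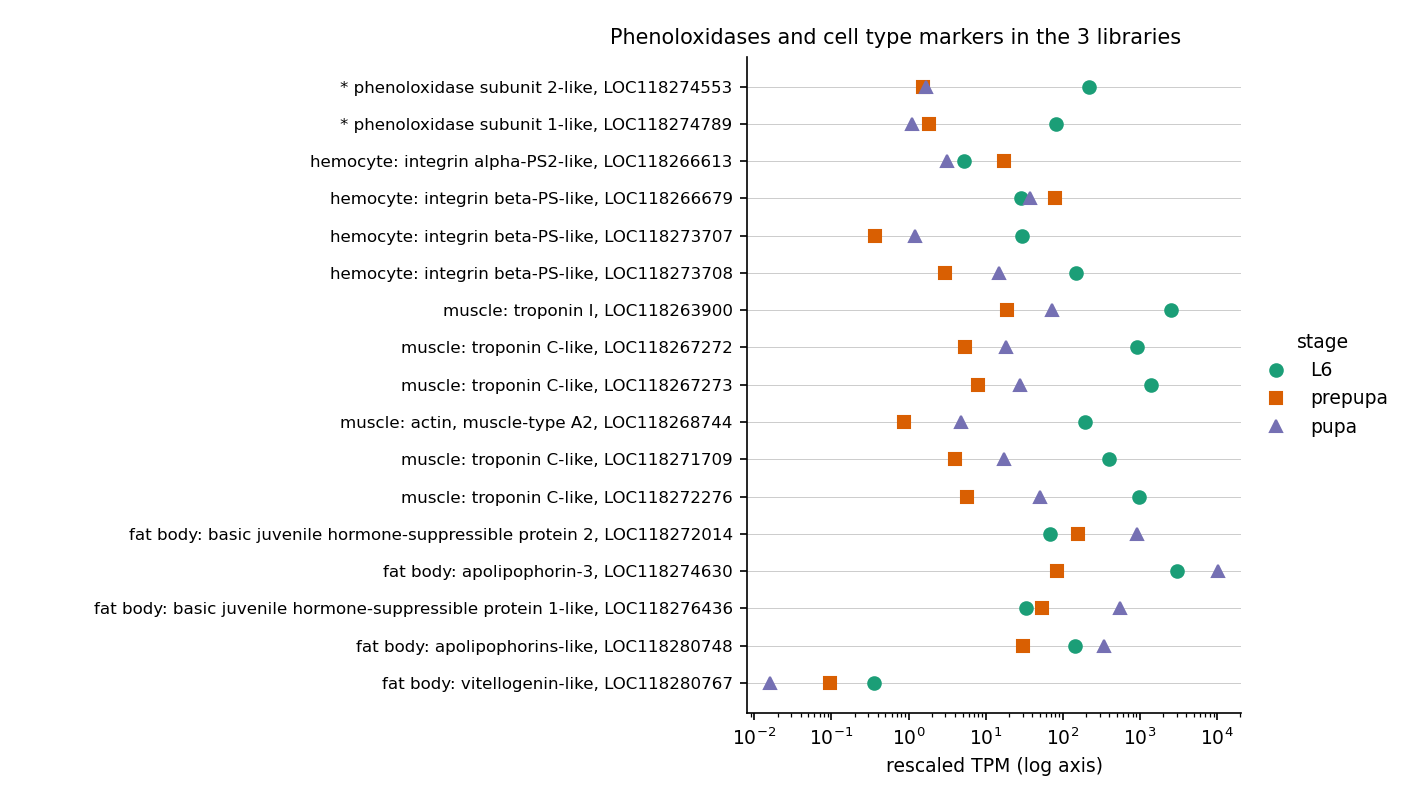
Rescaled TPM (log axis) of the 2 phenoloxidases (asterisks) and of the genes found from the hemocyte, muscle and fat body lists, in the L6 (circles), prepupa (squares) and pupa (triangles) libraries. All 6 muscle genes and 2 of the 4 integrins are highest in L6, as both phenoloxidases are, and 4 of the 5 fat body genes are highest in the pupa. Over the 12971 genes with at least 1 rescaled TPM in any library, 27.1% are highest in L6 and 26.5% in the pupa.

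The levels of genes next to the members on their sequences were as follows. Dynein light chain 2 (LOC118274462), 6090 bases from phenoloxidase subunit 1-like, had 453 rescaled TPM in L6, 334 in prepupal and 947 in pupal glands. ABHD11-like (LOC118274555), 1043 bases from subunit 2-like, had 30.2, 36.0 and 57.7. Between the neighbouring yellow-like genes lie LOC118264674, at most 2.29 rescaled TPM, and LOC118264457, with 62.7 in the pupa. On the flanks of tyrosine 3-monooxygenase-like, LOC118273548 stayed at or under 1.27 and LOC118263648 was highest in the pupa, at 15.8.

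Genes whose levels were most like those of a member were taken by the Euclidean distance of log2(rescaled TPM + 1) over the 3 libraries, among named genes. With 3 values a gene, likeness is easily met. Tyrosine 3-monooxygenase-like had 40 genes of any kind within a distance of 1, the yellow-like gene 2, phenoloxidase subunit 1-like 10 and subunit 2-like 5. Nearest to tyrosine 3-monooxygenase-like were solute carrier family 12 member 4-like (LOC118274591, distance 0.32), flocculation protein FLO11-like (LOC118262265, 0.39) and a ras GTPase-activating protein raskol-like gene (LOC118263127, 0.56). Nearest to phenoloxidase subunit 2-like were a PE_PGRS36-like gene (LOC118274010, 0.80), obstructor-E-like (LOC118262906, 0.90), in flies a chitin-binding protein of the cuticle, and an uncharacterized gene, LOC118267291 (0.97). For subunit 1-like they were LOC118271211, uncharacterized (0.91), pickpocket protein 28-like (LOC118271745, 0.94) and multiple inositol polyphosphate phosphatase 1-like (LOC118261984, 1.01). For the yellow-like gene they were synaptic vesicle glycoprotein 2B-like (LOC118274390, 0.78), glucose-6-phosphate isomerase-like (LOC118277306, 1.04) and aminoacylase-1-like (LOC118265511, 1.26). No gene of the tanning list was among the 3 nearest named genes of any member. That absence says little, since the list is short beside the 2296 named genes.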

How the data were processed

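The authors sequenced the libraries on a BGISEQ-500, used CLC Genomics Workbench to map reads to the FAW genome, and deposited 1 gene table per library. Read counts are deposited unnormalised, for exons, introns and exon-exon junctions, in total and for uniquely mapped reads. Recomputing TPM from exon reads and exon length over all listed genes, rRNA included, gave the deposited values to within a relative 7.7e-08. The deposited RPKM is reads per exon length scaled by library size. None of the build, the annotation release, strand and the sharing of multiply mapped reads is given in the sources used here.

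TPM was rescaled without 138 rRNA and mitochondrial genes. Ratios took no pseudocount, with exact conditional binomial 95% intervals from exon reads. Shares have Clopper-Pearson intervals, level intervals are exact Poisson, and the limit for a count of 0 is 3 counts. Calls used a pseudocount of 1, a minimum of 1 and a fold of 10. With 1 library per stage no test was run. Python 3.11.15, SciPy 1.17.1 and edgeR 4.0.16 (TMM factors only) were used. Alternatives were TPM and RPKM as deposited, unique reads, TMM, other pseudocounts, minimums and folds, and, added after seeing the data, leaving out L6.

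Protein names came from the study's tables, joined through RefSeq accessions of assembly AGI-APGP_CSIRO_Sfru_2.0, for 2296 genes. Those tables list genes called higher or lower in Verson's glands than in midgut, epidermis and fat body, and homologs of hemolymph proteins. They are therefore not a neutral sample of all genes. The other-tissue values in those tables were not used, though the gland lists were chosen by comparison with those tissues. The rule for named genes took the members, tanning genes at 10 or more rescaled TPM in any library, cascade genes at 50 or more, and the 3 named genes nearest each member. Other genes named from the lists, neighbours and serpins were added. The members and lists were chosen with earlier results of these data known.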

Additional observations from a re-analysis of the deposited data

How the results depend on the processing

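The log2 ratios of the 4 genes were recomputed under 5 alternatives, and of 60 values 30 stayed within the counting interval, 27 left it with the same sign and 3 left it with the other sign. Those 3 were prepupa over L6 of the yellow-like gene, -0.35 rescaled, 1.51 with TPM and 1.97 with RPKM as deposited, and pupa over prepupa of phenoloxidase subunit 1-like, -0.71 rescaled and 0.24 with TMM factors. Pupa over prepupa of subunit 2-like also changed sign, within its interval, at 0.12 rescaled and -0.17 with TPM as deposited. Against rescaled TPM, TPM as deposited shifts every log2 ratio of prepupa over L6 by 1.86 and of pupa over L6 by 1.57, RPKM by 2.32 and 2.38, and TMM factors by -0.33 and 0.62, and by 0.95 for pupa over prepupa. In the order TPM as deposited, RPKM as deposited and pseudocount of 1, prepupa over L6 was -3.63, -3.16 and -4.87 for subunit 1-like and -5.29, -4.82 and -6.43 for subunit 2-like, and pupa over L6 was -4.63, -3.81 and -5.29 for subunit 1-like, -5.46, -4.65 and -6.36 for subunit 2-like, and -4.99, -4.18 and -5.13 for the yellow-like gene. Tyrosine 3-monooxygenase-like had 5.97 with TPM and 6.44 with RPKM for prepupa over L6, 3.33 and 4.14 for pupa over L6, and -2.64 with TPM and -1.41 with TMM for pupa over prepupa. With TMM factors, pupa over L6 was -5.58 for subunit 1-like and -6.41 for subunit 2-like, pupa over prepupa was 1.06 for subunit 2-like and -5.26 for the yellow-like gene, and prepupa over L6 of the yellow-like gene was -0.68. With a pseudocount of 1, pupa over prepupa of the yellow-like gene was -4.78. The cause of these shifts is the construction of each scale.

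Members highest in L6, prepupa and pupa numbered 3, 1 and 0. Over the 12971 genes with at least 1 rescaled TPM in any library, the shares were 27.1%, 46.4% and 26.5%. With TPM as deposited the shares over these genes were 11.0%, 58.4% and 30.6%. With TPM or RPKM as deposited the prepupa had 2 members, and without the L6 library the prepupa had 3 and the pupa 1. Genes past 10-fold in prepupa over L6 (661 higher, 635 lower) numbered 1433 and 1369 with a pseudocount of 0.1, 314 and 299 with 5, 1871 and 1195 at a fold of 4, 1536 and 260 with TPM and 1405 and 156 with RPKM as deposited. In pupa over L6 (529 and 422) they numbered 1251 and 1230 with a pseudocount of 0.1, 196 and 170 with 5, 1330 and 1317 at a fold of 4, 867 and 136 with TPM, 999 and 69 with RPKM, and 887 higher with TMM factors. In pupa over prepupa (564 and 1056) they numbered 1116 and 2195 with a pseudocount of 0.1, 243 and 426 with 5, 1409 and 2777 at a fold of 4, and 1070 higher with TMM factors. No paired analysis was possible because each stage has 1 library, and no replicate could be left out. Low values in L6 are limited by its 2610753 reads outside rRNA and mitochondrial genes.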
